A study of Mus musculus with 18 samples.

Results

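The tumour pools of AKXD recombinant inbred strains 11, 14 and 27 are 3 of 18 small RNA libraries, and they were chosen by measured values. The choice rested on 5 miRNAs of blood-derived cells in the same libraries, miR-142-3p, miR-142-5p, miR-150, miR-155 and miR-223. The other 15 pools (strains 2, 3, 7, 9, 10, 13, 16, 18, 20, 21, 22, 23, 24, 25 and 28) are the comparison. The question was which other miRNAs were high or low with leukocyte content. Every pool, chosen or not, holds RNA of mammary tumours from F1 mice of an AKXD strain and the FVB/N-TgN(MMTV-PyVT)634Mul line. In that line the mouse mammary tumour virus promoter drives the polyoma virus middle T oncogene, mainly in mammary epithelium, so all 18 pools carry the transgene and differ in the AKXD parent. The labels name no treatment, age or batch. The sources used here do not give the number of mice or tumours behind a pool. Each strain is 1 library, so that no difference between strains has a replicate check. The 3-against-15 differences are given as a description with no test, since the same libraries chose the pools.

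A microRNA (miRNA) is a short RNA cut from a hairpin precursor, and its seed, bases 2 to 8, carries most of the pairing with target mRNAs. Several miRNAs are made mainly by one kind of cell, so that in RNA from a whole tumour their levels follow the mixture of cells. Both arms of the miR-142 hairpin are made across blood-derived cells, miR-150 is abundant in mature lymphocytes, miR-155 is induced in activated lymphocytes and macrophages, and miR-223 is abundant in neutrophils and other myeloid cells. In RNA from whole tumours, fewer cells of a type and less RNA per cell cannot be told apart.

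Mature sequences are shown 5′ to 3′ from RefSeq (build GRCm38.p6), with the seed in capitals. Of 22 names looked up in that table, 19 matched, and miR-150, miR-126-5p and miR-669c are given by name. The first set holds 4 of the 5 miRNAs that chose the pools, and the opposite arm of the miR-150 hairpin, called miR-150* in the deposited table. Their seeds all differ.
miR-142-3p: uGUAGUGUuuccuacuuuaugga
miR-142-5p: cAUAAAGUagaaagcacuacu
miR-155: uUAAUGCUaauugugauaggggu
miR-223: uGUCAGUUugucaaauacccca
miR-150*: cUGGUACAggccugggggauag

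The second set holds the miRNAs outside the choice that stood apart in all 3 pools (miR-215 and miR-144), each with its relative or its neighbour in the genome.
miR-215: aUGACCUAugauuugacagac
miR-192: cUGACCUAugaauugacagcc
miR-194: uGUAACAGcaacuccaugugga
miR-144: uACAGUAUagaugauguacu
miR-451: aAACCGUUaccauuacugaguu

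The third set holds miRNAs that moved with the leukocyte miRNAs among the other 15 pools, with the relative of miR-29c, and the pair behind the largest single-pool difference (miR-107 and miR-103).
miR-29c: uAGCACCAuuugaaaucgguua
miR-29a: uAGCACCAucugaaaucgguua
miR-322: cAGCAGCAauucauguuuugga
miR-182: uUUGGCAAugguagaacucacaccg
miR-107: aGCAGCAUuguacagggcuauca
miR-103: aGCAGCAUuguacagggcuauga

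Counting positions from 1 at the 5′ end, the change from miR-192 to miR-215 is C1A, A12U and C20A, and both share the seed UGACCUA. From miR-29a to miR-29c it is C10U, and from miR-103 to miR-107 it is G22C. The sources used here do not give how reads that match both members of such a pair were assigned, so the values of these pairs are uncertain to that extent.

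The libraries held 4358281 to 14949453 miRNA reads, with 7986187 in strain 11, 13165999 in strain 14 and 14949453 in strain 27. Levels are given as CPM, reads scaled to a common library total and by 1 TMM factor (a trimmed mean of log ratios between libraries) per library, between 0.671 in strain 14 and 1.67 in strain 28. Differences are means of log2(CPM + 1), the 3 pools minus the other 15, which understates changes of low miRNAs. Beside the 5 that chose the pools, 276 miRNAs had a mean of at least 10 CPM. On the first principal component of these levels, with 27.6% of the variance, 4 pools lay low: strain 10 at -13.0, strain 13 at -8.55, strain 14 at -7.12 and strain 20 at -7.04. Strain 14 is therefore the member that stands apart, and results that rest on it are also given without it.

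With TMM scaling, the label of leukocyte-rich pools held for 3 of the 5 miRNAs that chose them. miR-150, the lymphocyte miRNA, was at 215 CPM in strain 11, 226 in strain 14 and 313 in strain 27. In the other 15 pools it ran from 4.53 CPM (strain 10) over a median of 20.6 CPM to 55.3 CPM (strain 24). The groups were far apart, and the difference of 3.51 log2 was the widest of the 5. miR-155 was at 191, 131 and 226 CPM in strains 11, 14 and 27, against 54.8 to 119.5 CPM (median 79.6) in the rest, a difference of 1.14 log2. miR-142-5p was at 379, 425 and 542 CPM, against 99.7 to 330.3 CPM (median 118), a difference of 1.72 log2. For both, with TMM scaling, the 3 pools were the highest of 18, with strain 9 next for miR-155 and strain 2 next for miR-142-5p. With scaling by the library total the differences were 3.21 log2 for miR-150, 0.84 for miR-155 and 1.42 for miR-142-5p. On that scaling strains 11 and 14 were under strain 28 for miR-155, with 1296 of 7986187, 1155 of 13165999 and 962 of 5536051 reads. There, strain 14 was also under strains 3, 9, 18, 22 and 24, so it lay within the range of the 15. For miR-142-5p strains 11 and 14 were under strain 2, and the TMM factors of strains 11, 14 and 2 are 0.851, 0.671 and 1.05.

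miR-142-3p and miR-223 did not put all 3 pools on top. With TMM scaling, miR-142-3p was at 11235 CPM in strain 11 and 17099 in strain 27, above the whole range of 1360.4 to 6416 CPM (median 3575) of the 15. On the library total strain 11 was under strain 28, as their TMM factors are 0.851 and 1.67. In strain 14 it was at 5793 CPM, under strain 28 (6416 CPM) and strain 24 (6034 CPM). miR-223, the neutrophil and myeloid miRNA, was at 34.2 CPM in strain 11, 36.2 in strain 14 and 63.6 in strain 27. The 15 spanned 16.7 to 44.0 CPM (median 33.9), so only strain 27 stood above them. The difference was 0.43 log2, 0.15 without strain 27 and 0.14 with scaling by the library total. The name leukocyte-rich thus rests, for strain 14, on miR-150 and, with TMM scaling only, on miR-155 and miR-142-5p. For strain 11 it rests on miR-150 and, with TMM scaling only, on miR-155 and both arms of miR-142. Summed over the 5 miRNAs with TMM scaling, strain 14 was at 6610 CPM, under strain 28 (6727 CPM) and just above strain 24 (6446 CPM). In the sum by library total, strain 11 was under strain 28 as well.

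The arms of the miR-142 hairpin were not in a fixed ratio. miR-142-5p reads were 3.37% of miR-142-3p reads in strain 11, 3.17% in strain 27 and 7.33% in strain 14. In the 15 pools this share ran from 2.10% to 7.33%, and the highest of them were strain 10 (7.33%) and strain 2 (6.94%). Strain 14 lay at the upper end of that range and strains 11 and 27 under its median of 3.90%.

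**Figure D1:**
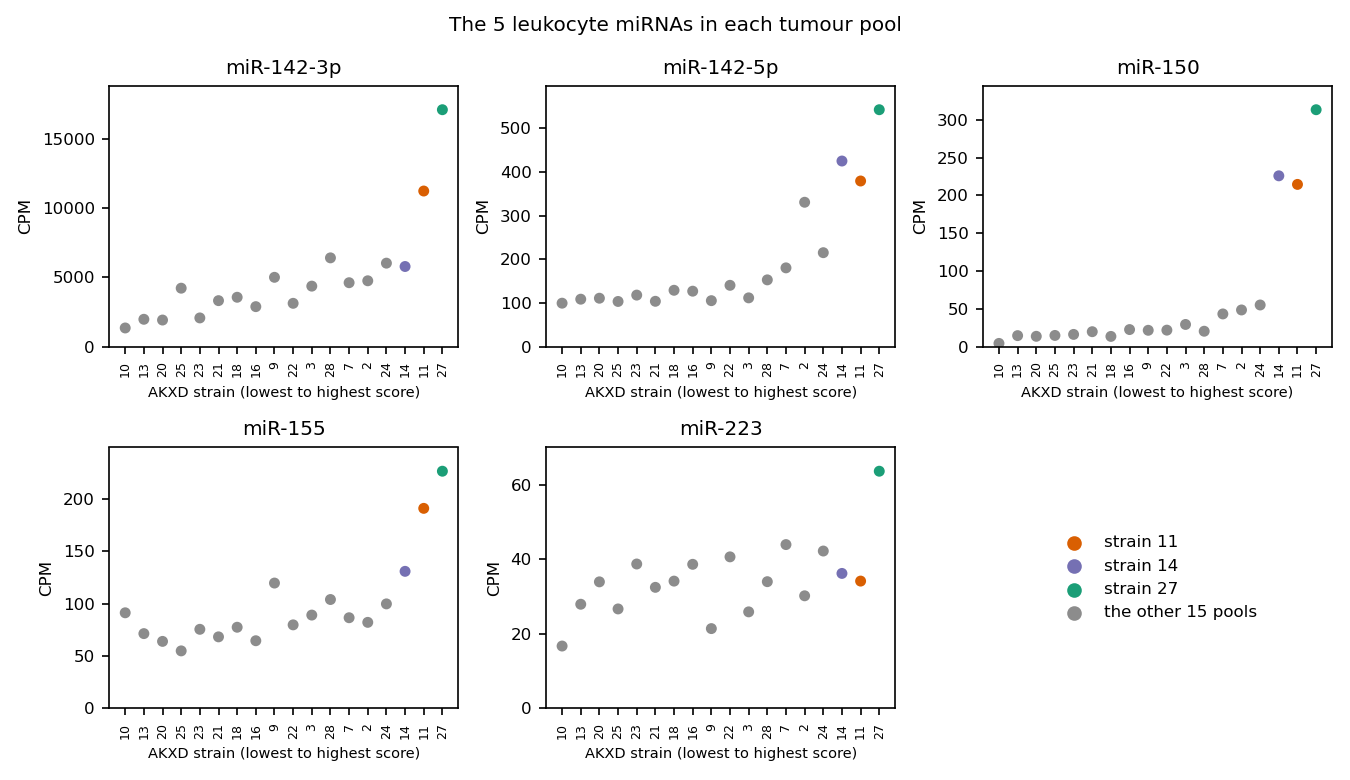
Level of each of the 5 leukocyte miRNAs (CPM, linear axis from 0) in each of the 18 pools, with 1 point per library and strains ordered from the lowest to the highest leukocyte score. Strains 11, 14 and 27 are coloured and the other 15 pools are grey; miR-150 shows the widest gap (215 to 313 CPM against at most 55.3 CPM), while for miR-223 only strain 27 (63.6 CPM) stands above the grey points.

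A leukocyte score, the mean over the 5 miRNAs of log2(CPM + 1) after centring each on its mean over the 18 pools, summarised these levels. It was 1.85 in strain 27, 1.29 in strain 11 and 1.06 in strain 14. The next pools were strain 24 at 0.44, strain 2 at 0.31 and strain 7 at 0.21, and the lowest were strain 10 at -1.16, strain 13 at -0.65 and strain 20 at -0.65. Strains 14 and 24, just inside and just outside the choice, were 0.62 apart, while the SD of the score over the 15 pools was 0.42. That gap depends on TMM scaling, with factors of 0.671 in strain 14, 1.02 in strain 24 and 1.67 in strain 28. With scaling by the library total, strain 14 would score close to strain 24 and under strain 28.

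The passenger arm miR-150* was not used for the choice and moved with its guide. It had 18 reads in strain 11, 20 reads in strain 14 and 55 reads in strain 27, or 2.65, 2.26 and 3.54 CPM. The other 15 pools had 0 to 7 reads, or at most 0.641 CPM. The groups did not overlap, though the levels are far under the 10 CPM minimum and carry large counting error. The pools of strains 21 and 28 had 0 reads, which allows up to 0.390 and 0.324 CPM (3 reads), a limit that takes in the error of counting alone, because copies made by PCR were counted like separate molecules. Over all reads of a group, miR-150* was 1.12% of miR-150 in the 3 pools (93 against 8329 reads) and 1.33% in the 15 (51 against 3835 reads). Since both arms are cut from 1 hairpin, miR-150* is not a measurement independent of the choice.

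Among the 276 other miRNAs, few separated the chosen pools. In all, 2 lay in strains 11, 14 and 27 above every one of the 15 pools, which is 0.725% of those measured, and 0 (0%) lay below every one. The mean of the 3 pools was above that of the 15 for 134 of 276 (48.6%), and the median difference over all 276 was -0.01 log2. With scaling by the library total alone, the median difference was -0.30, 17.3% were higher, and 0 miRNAs lay above and 2 (miR-182 and miR-30a) below the 15. A difference of at least 1 log2 upward was seen for 8 miRNAs and of at least 1 log2 downward for 1.

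miR-215 is a p53-responsive relative of miR-192, known from gut, kidney and liver epithelium, and it showed the widest difference outside the leukocyte miRNAs. It was at 21.6 CPM in strain 11, 33.2 in strain 14 and 24.9 in strain 27 (147, 293 and 388 reads). In the other 15 pools it ran from 2.48 CPM (strain 16) over a median of 6.35 CPM to 12.6 CPM (strain 2). The groups did not overlap, and the difference was 1.91 log2 (1.74 without strain 14). The mean over the 18 pools was 10.0 CPM and that of the 15 was 6.70 CPM, so miR-215 passed the 10 CPM minimum through the chosen pools. It stayed above the 15 pools under each of the 4 scalings tried, though its mean fell under the minimum with the library total and with the median of ratios.

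The relatives of miR-215 did not share its pattern. miR-192, which has the same seed, was at 435, 588 and 313 CPM in strains 11, 14 and 27, against 362 to 689.7 CPM (median 429). For miR-192, strain 27 was the lowest of all 18 pools and strain 14 the third from the top, and the difference was -0.04 log2. miR-194 is cut from a hairpin 195 bases from that of miR-215 on the same strand of chromosome 1 (Mir194-1 at 185313319 to 185313385, Mir215 at 185313581 to 185313692, GRCm38.p6), and also from a copy beside Mir192 on chromosome 19. It was at 158, 146 and 174 CPM, against 117 to 210.3 CPM (median 158) in the 15, with a difference of -0.00 log2. Both lay within the range of the 15 pools in strains 11 and 14, and miR-194 did in strain 27 as well.

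miR-144 was the other miRNA above all 15 pools. It is an erythroid miRNA, cut from the same transcript as miR-451, whose hairpin lies 99 bases away on chromosome 11 (Mir144 at 78073005 to 78073070, Mir451a at 78073170 to 78073241, GRCm38.p6). Its level was 32.4 CPM in strain 11, 29.2 in strain 14 and 38.1 in strain 27 (220, 258 and 593 reads). The 15 ran from 8.89 CPM (strain 9) over a median of 19.0 CPM to 27.1 CPM (strain 24). The margin between strains 14 and 24 was 0.10 log2, the difference between groups was 0.90 log2, and with scaling by the library total the groups overlapped (19.6 CPM in strain 14, 31.8 CPM in strain 28).

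The erythroid miRNAs as a list were higher in the chosen pools, with a median difference of 0.87 log2 over its 3 measured members. miR-451, needed for late red cell maturation, was at 301 CPM in strain 11, 468 in strain 14 and 605 in strain 27. The 15 pools spanned 142.1 to 416 CPM (median 275), so with TMM scaling strains 14 and 27 were above them and strain 11 was within their range. On the library total strain 14 was under strain 24. miR-486, also abundant in muscle, was at 157, 311 and 136 CPM, against 36.3 to 207 CPM (median 106), and only strain 14 was above the range. Summed over the list, the level was 491 CPM in strain 11, 808 in strain 14 and 779.9 in strain 27, against 207 to 581 CPM in the 15. It thus moved with the choice in strains 14 and 27 more than in strain 11, and its part in the leukocyte levels was not tested.

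**Figure D2:**
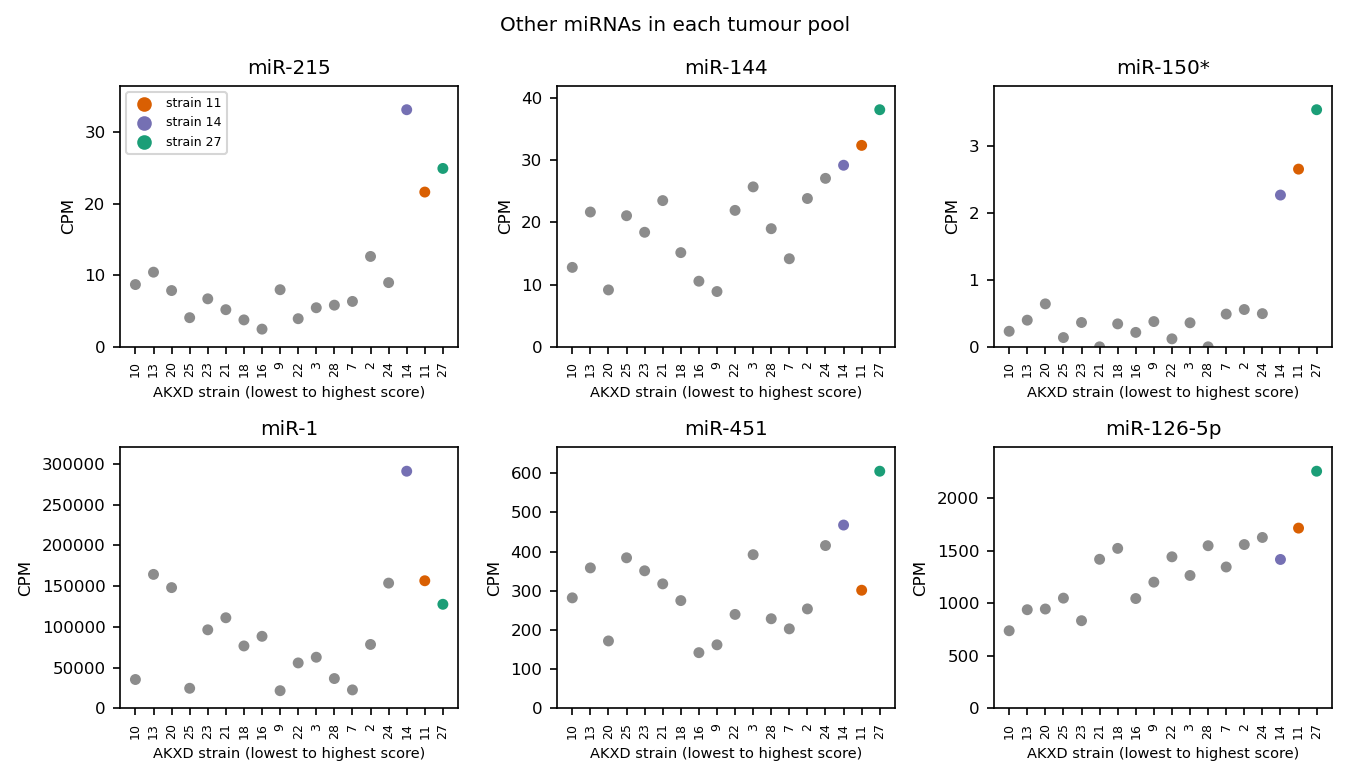
Level (CPM with TMM scaling, linear axis from 0) of miR-215, miR-144, miR-150*, miR-1, miR-451 and miR-126-5p in each of the 18 pools, with strains ordered by leukocyte score and the other 15 pools in grey. miR-215 (21.6 CPM or more) and miR-144 (29.2 CPM or more) lie above every grey point in all 3 chosen pools, miR-1 does so only in strain 14 (290872 CPM), and miR-126-5p does so in strains 11 and 27.

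Skeletal muscle miRNAs showed the widest list difference. miR-1, miR-206, miR-133a and miR-133b are markers of skeletal muscle. All 5 measured members (miR-133a* included) had a higher mean in the 3 pools, and their median difference was 1.32 log2 (1.15 without strain 14), against -0.01 over all 276. miR-1 was at 156493 CPM in strain 11, 290872 in strain 14 and 127629 in strain 27, against 21641 CPM (strain 9) to 164296 CPM (strain 13) and a median of 76522 CPM. Only strain 14 was above the 15 pools. miR-206 was at 4377, 11666 and 3217 CPM, against 743 to 5777 CPM (median 2022), again with strain 14 alone above.

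By summed muscle miRNAs, strain 14 ranked 1st of 18, strain 11 the third and strain 27 the sixth. The sums were 303090 CPM, 161362 CPM and 131395 CPM, against 22535 to 169959 CPM in the 15. Strains 13, 20 and 24, outside the choice, held 169959, 154094 and 158765 CPM, while their leukocyte scores were -0.65, -0.65 and 0.44. High muscle miRNAs were therefore found both with high and with low leukocyte scores, and the cardiac and slow-muscle miR-208b and miR-499 were at most 0.836 and 2.31 CPM in the 3 pools. Whether muscle or red cell RNA has a part in the levels of miR-215 and miR-144 was not tested.

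Endothelial miR-126, from an intron of Egfl7, was also higher on average, with a median difference of 0.56 log2 over its 2 arms. miR-126-5p was at 1717 CPM in strain 11, 1418 in strain 14 and 2259 in strain 27, against 739 CPM (strain 10) to 1628 CPM (strain 24) and a median of 1266 CPM. With TMM scaling, strains 11 and 27 were above all 15 and strain 14 was within their range. With scaling by the library total, strain 28 was at 2593 CPM and all 3 chosen pools lay under it. miR-126-3p was at 12996, 20883 and 17218 CPM, against 7236 to 16495 CPM (median 10855). Here, with TMM scaling, strains 14 and 27 were above and strain 11 was not, so that the arms of 1 hairpin split the pools differently. On the library total strain 14 was under strain 28 for miR-126-3p.

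Taking strains 11 and 27 without strain 14, 3 of 276 miRNAs (1.09%) lay above all 15 pools and 0 (0%) below, namely miR-215, miR-144 and miR-126-5p. Taking strains 14 and 27 without strain 11, 8 of 276 (2.90%) lay above and 3 (1.09%) below. Those above were miR-107, miR-126-3p, miR-133a*, miR-144, miR-215, miR-378*, miR-451 and miR-708, and those below were miR-450b-5p, miR-542-3p and miR-709. Both sets are those of TMM scaling, and with 2 pools in place of 3, fewer libraries have to lie outside the 15. miR-215 and miR-144 were in both sets. miR-708 was at 43.3 CPM in strain 11, 93.7 in strain 14 and 151 in strain 27, against 14.0 to 59.7 CPM (median 35.9). miR-709 was the single miRNA at least 1 log2 lower (-1.32), at 3.68, 1.81 and 1.48 CPM, against 1.88 to 64.9 CPM (median 5.67), a range that rests on few reads in several pools. Its mean was 13.6 CPM in the 15 and 2.32 in the 3, so it passed the 10 CPM minimum only through pools among the 15, such as strain 21 (64.9 CPM). miR-708 and miR-709 are named because of their values.

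**Figure D3:**
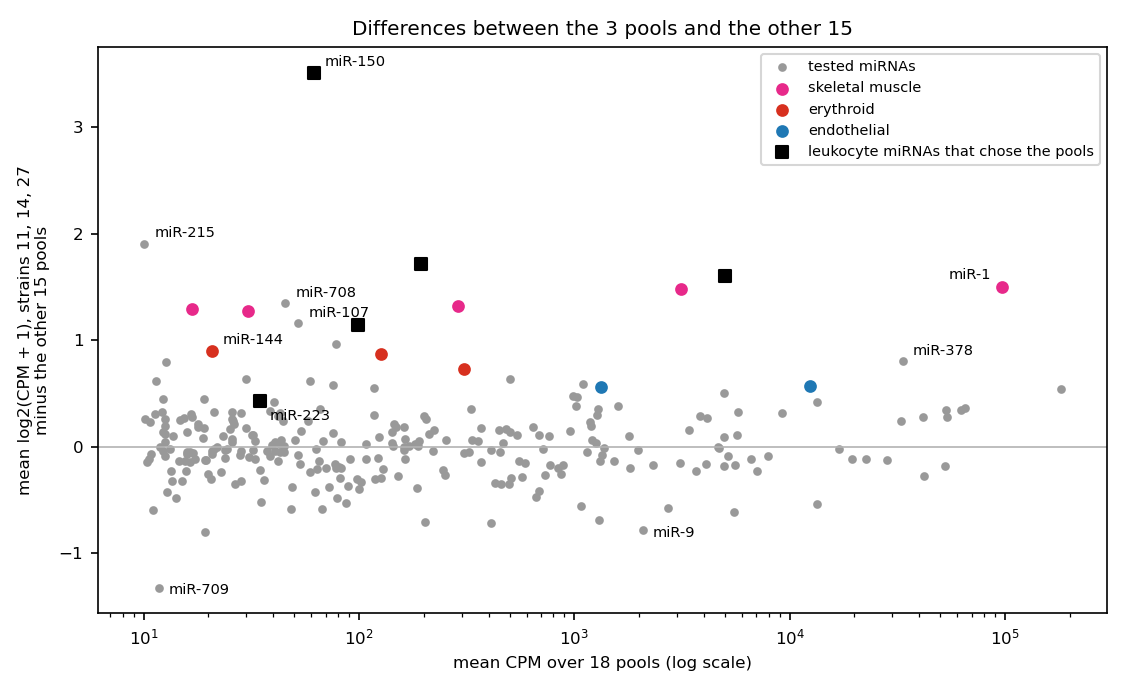
Difference of mean log2(CPM + 1), the 3 chosen pools minus the other 15, against the mean CPM over 18 pools (log axis), with 1 point per miRNA. The leukocyte miRNAs that chose the pools (black squares) reach 3.51 for miR-150; of the other 276, miR-215 is the highest at 1.91, the skeletal muscle members lie at 1.27 or above, and the bulk of the points lies around 0.

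The other lymphoid and myeloid miRNAs differed among the 3 chosen pools. Of 14 listed, 11 were in the table and 7 had a mean of at least 10 CPM. Of these 7, 3 had a higher and 4 a lower mean in the 3 pools, the median difference was -0.03 log2, and none lay outside the 15 in all 3 pools. By the members' median deviation from their mean over the 15 pools, strain 11 ranked 1st of 18 (0.21 log2, against at most 0.16 in the 15), strain 14 the seventh (0.10 log2) and strain 27 the sixteenth (-0.23 log2). The median difference was 0.15 log2 without strain 27 and -0.098 without strain 11. miR-146a, an NF-kappaB target that limits inflammatory signalling, was at 1474, 1098 and 1325 CPM in strains 11, 14 and 27, against 659.9 to 1972 CPM (median 895). The 3 pools lay in the upper part of that range, and strain 7 was the highest. miR-342-3p, abundant in lymphocytes, was at 216 CPM in strain 11 and 179.9 in strain 27 and at 63.1 CPM in strain 14. Only strain 10, at 28.2 CPM, was lower than strain 14, and the highest was strain 3 at 306 CPM.

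The miR-181 members, known in lymphocyte development but widely made, were flat. miR-181a was at 6408, 6166 and 5411 CPM, against 3363 to 6848 CPM (median 5898), and miR-181b was at 1319, 1046 and 969.8 CPM, against 835 to 1452 CPM (median 1157). Both lay inside the range of the 15 in each of the 3 pools. Of the members with a mean under 10 CPM, only miR-511 is given. This macrophage-linked miRNA was at 0.442 CPM in strain 11 and 0.321 in strain 27 and had no reads in strain 14. The 15 spanned 0 to 0.732 CPM, so it did not set the chosen pools apart.

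Epithelial miRNAs tended to lower means. Of 13 luminal miRNAs, 12 had a lower and 1 (miR-429) a higher mean in the 3 pools, with a median difference of -0.17 log2 (-0.02 without strain 14, -0.34 without strain 11 and -0.11 without strain 27), and 0 lay below the 15 in all 3 pools. miR-200c, which keeps epithelial cells from a mesenchymal state, was at 14519.9, 22073 and 13323 CPM, against 11094 to 26245 CPM (median 15952). miR-182 of the miR-183/96/182 cluster was at 10928 CPM in strain 11, 12678 in strain 14 and 5679.7 in strain 27, against 8312 CPM (strain 16) to 31428 CPM (strain 10) and a median of 12481 CPM. Strain 27 was the lowest of all pools and the other 2 were near the middle. The basal epithelial miR-203 and miR-205 had differences of -0.58 and -0.28 log2 (median -0.43, and -0.28 without strain 27). miR-203 was at 1986, 1652 and 1362 CPM, against 993 to 9931 CPM (median 2164), and all 3 pools lay within the range of the 15 for both.

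Stromal and let-7 miRNAs were slightly higher with TMM scaling. All 7 measured fibroblast and smooth muscle miRNAs had a higher mean, with a median difference of 0.24 log2 that became -0.059 with scaling by the library total. miR-143, the smooth muscle miRNA, was at 29242, 59890.0 and 24519 CPM, against 15243 to 57439.7 CPM (median 32665), so strain 14 alone was above. miR-199a-3p, counted together with its identical row miR-199b, was at 642, 855 and 924 CPM, against 570 to 1159 CPM (median 727). All 9 members of the let-7 family, which promotes differentiation, had a higher mean, with a median difference of 0.28 log2 that became -0.018 with the library total. let-7c, the most abundant, was at 252468, 244593 and 160432 CPM, inside the range of 8644 to 290818 CPM (median 163786). let-7f was at 72001, 85286 and 71299 CPM, inside 34483 to 128353 CPM (median 58094). For neither list did any member lie above the 15 in all 3 pools.

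The remaining lists had medians near that of all miRNAs, which moved when a chosen pool was left out. Of 19 measured miRNAs of the imprinted Dlk1-Dio3 cluster, 3 had a higher and 16 a lower mean (median -0.13 log2, -0.29 without strain 14 and -0.051 without strain 27). miR-379 of that cluster was at 812, 942 and 495 CPM, against 572 to 1152 CPM (median 882), and strain 27 was the lowest pool. miR-127 was at 435, 545 and 296 CPM, within 268 to 762 CPM (median 525). Of 7 liver, gut and pancreas miRNAs, 2 were higher and 5 lower (median -0.04 log2, -0.27 without strain 14 and 0.19 without strain 27). Of 4 neural ones, 2 were higher and 2 lower (median -0.09 log2, -0.27 without strain 14, -0.22 without strain 27 and 0.11 without strain 11). miR-122, the hepatocyte miRNA, was at 16.8 CPM in strain 11, 375 in strain 14 and 70.1 in strain 27, against 1.56 to 182 CPM (median 58.0). miR-9, the most abundant neural one, was at 722, 1428 and 793 CPM, against 301 to 8315 CPM (median 1625). miR-138 was at 45.5, 75.6 and 73.1 CPM, against 31.7 to 123 CPM (median 52.2).

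The miR-17-92 cluster and its paralogues, which promote proliferation, split the chosen pools. Of 15 measured members, 5 had a higher and 10 a lower mean, with a median difference of -0.13 log2, which became 0.18 without strain 14 and -0.071 without strain 27. On the same measure of deviation, strain 11 ranked 1st of 18 (0.32 log2), strain 27 the fifth (0.15 log2) and strain 14 the sixteenth (-0.24 log2). miR-20a was at 2657 CPM in strain 11, 2577 in strain 27 and 1261 in strain 14, under the whole range of the 15 (1669 to 3387 CPM). miR-93, from the miR-106b-25 cluster, was at 4347, 3929 and 2879 CPM in strains 11, 14 and 27, against 2927 to 6746 CPM (median 3906).

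**Figure D4:**
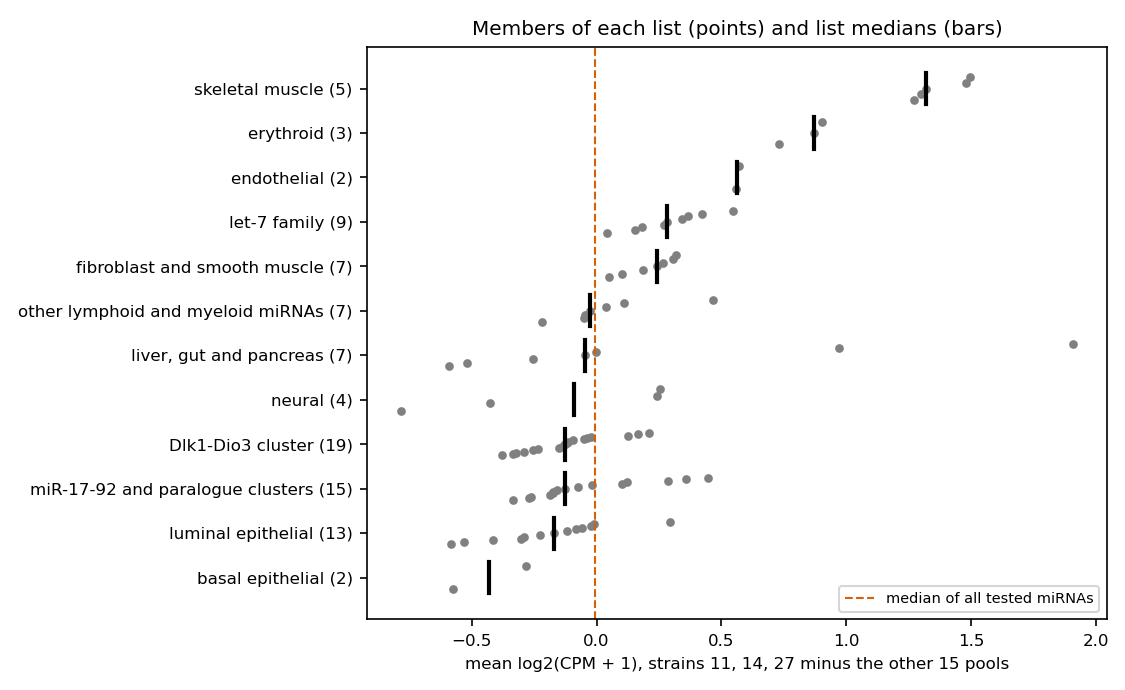
Difference of mean log2(CPM + 1), the 3 chosen pools minus the other 15, for each measured member (grey points) of 12 lists of miRNAs, with the list median as a black bar, the number of members in brackets and the median of all 276 as a dashed line. Skeletal muscle (1.32), erythroid (0.87) and endothelial (0.56) medians lie to the right, and the other lymphoid and myeloid miRNAs (-0.03) lie at the median of all.

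Each chosen pool, like each of the 15, was the highest or the lowest of 18 for some miRNAs. In the 15 pools 1.45% to 15.6% of 276 miRNAs were the highest and 1.45% to 17.8% the lowest. Strain 11 was the highest of 18 for 7 (2.54%) and the lowest for 3 (1.09%) of 276 miRNAs. Its farthest were miR-20b (117 CPM against at most 87.8 CPM elsewhere), miR-191* (19.6 against 14.98 CPM) and miR-339-3p (23.7 against 22.1 CPM). Farthest below were miR-99b* (19.3 CPM against at least 21.1 CPM elsewhere), miR-221 (41.2 against 44.1 CPM) and miR-669l (5.15 against 5.48 CPM). The widest of these margins was 0.42 log2, for miR-20b.

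Strain 14 was the highest for 17 (6.16%) and the lowest for 20 (7.25%) miRNAs, inside the span of the 15 pools. miR-107, encoded in an intron of Pank1, was at 209 CPM, against 78.9 CPM in the next pool (strain 27) and 42.7 CPM in strain 11, while miR-103, which differs from it by G22C, was at 11994 CPM and inside the range of the 15 (4958 to 16495 CPM). miR-378, from an intron of Ppargc1b and abundant in muscle and brown fat, was at 126610.0 CPM, against 59879 CPM in strain 10 as the next pool. miR-122 was at 375 CPM, against 182 CPM in strain 10. Farthest below were miR-96 (224 CPM against at least 379 CPM elsewhere), miR-19a (28.4 against 46.1 CPM) and miR-18a (143 against 224 CPM). The muscle miRNAs of strain 14 were also the highest of all pools, and their part in these values was not tested.

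Strain 27 was the highest for 28 (10.1%) and the lowest for 19 (6.88%) miRNAs, also inside that span. miR-708, from an intron of Tenm4, was at 151 CPM, against 93.7 CPM in strain 14, miR-193 was at 88.7 CPM, against 57.2 CPM in strain 25, and miR-467e was at 55.0 CPM, against 41.4 CPM in strain 9. Farthest below were miR-2138 (114 CPM against at least 237 CPM elsewhere), miR-2141 (40.8 against 79.8 CPM) and miR-182 (5679.7 against 8312 CPM). Strain 10, outside the choice and with the lowest leukocyte score, had more such extremes than any of the 3, with 43 highest and 49 lowest.

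The other 15 pools allowed a test of the 276 miRNAs that had no part in the choice, in libraries outside the chosen ones. The score itself is built from the 5 miRNAs that ranked the pools, so its range over the 15 was cut by the choice. The slope of log2(CPM + 1) on the leukocyte score was fitted over these 15 pools with limma, and p-values were adjusted by Benjamini-Hochberg over 276 miRNAs. They describe the spread among these libraries, in which score and level share the library and its scaling factor. At an adjusted p under 0.05, 3 rose (1.09%) and 2 fell (0.725%) with the score, while 28 rose and 32 fell at an unadjusted p under 0.05. These counts depended on the scaling, with 118 rising and 2 falling by the library total and 0 and 0 by the upper quartile. miR-215 and miR-144 were not among them, with slopes of 0.14 ± 0.36 (SE; adjusted p = 0.830 by limma) and 0.45 ± 0.30 (SE; adjusted p = 0.410 by limma). The direction of miR-215 was not stable in this fit and turned to -0.12 without strain 2.

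miR-126-5p, the endothelial arm, rose by 0.72 ± 0.16 log2 (SE) per unit of score over the 15 pools (limma, adjusted p = 0.0398). It ran from 739 CPM in strain 10, the pool with the lowest score, to 1628 CPM in strain 24, the one with the highest. Over the 15 pools its Pearson r was 0.83 (permutation p = 6e-05, adjusted 0.0166) and its Spearman rho 0.83 (permutation p = 0.00027, adjusted 0.0373). Without the 2 pools farthest from the median score, strains 10 and 24, r was 0.71. The other arm, miR-126-3p, had a slope of -0.27 ± 0.21 (SE; adjusted p = 0.483 by limma) and did not pass.

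miR-29c, which targets collagen and other matrix mRNAs, rose by 1.03 ± 0.24 log2 per unit (SE; limma, adjusted p = 0.0398), from 19.5 (strain 10) to 93.0 CPM (strain 24). Its r was 0.78 (permutation p = 0.00063, adjusted 0.0435) and its rho 0.67 (permutation p = 0.00809, adjusted 0.236), and r was 0.50 without strains 10 and 24. Its relative miR-29a, with the same seed, had a slope of 0.71 ± 0.24 (SE), which did not pass (limma, adjusted p = 0.126). In strains 11, 14 and 27, miR-29c was at 69.3, 72.0 and 102 CPM, so only strain 27 was above the 15.

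miR-322, the mouse counterpart of miR-424 and a member of the miR-16 seed family, rose by 0.69 ± 0.17 log2 per unit (SE; limma, adjusted p = 0.0453), from 552 (strain 10) to 1330.2 CPM (strain 28). Its r was 0.81 (permutation p = 0.00034, adjusted 0.0435) and its rho 0.73 (permutation p = 0.00297, adjusted 0.205), with an r of 0.70 without strains 10 and 24. In the chosen pools it was at 1007 CPM in strain 11, 820.3 in strain 14 and 1262 in strain 27. All 3 lay inside the range of the 15 although their scores were higher.

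Of the miRNAs that fell, miR-182 is the luminal epithelial one, and its slope was -0.89 ± 0.22 (SE; limma, adjusted p = 0.0453). It ran from 31428 (strain 10) to 8312 CPM (strain 16). Its r was -0.76 (permutation p = 0.00116, adjusted 0.0640) and its rho -0.69 (permutation p = 0.00582, adjusted 0.229), with an r of -0.56 without strains 10 and 24. miR-669c, from the large miRNA cluster in an intron of Sfmbt2, had a slope of -1.07 ± 0.24 (SE; limma, adjusted p = 0.0398) and ran from 81.0 (strain 10) to 20.7 CPM (strain 22). Its r was -0.78 (permutation p = 0.00063, adjusted 0.0435) and its rho -0.76 (permutation p = 0.00146, adjusted 0.134), with an r of -0.69 without those 2 pools. With scaling by the library total neither passed, with slopes of -0.21 for miR-182 and -0.28 for miR-669c (limma, adjusted p = 0.267 for both). In strains 11, 14 and 27 miR-669c was at 26.2, 79.9 and 33.9 CPM, so strain 14 was the highest after strain 10.

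Whether these slopes passed depended on single pools, while their signs did not. Strains 10, 13 and 20 hold the 3 lowest leukocyte scores and are also those that lie low with strain 14 on the first principal component. Without strain 10, 0 miRNAs passed (limma, smallest adjusted p = 0.538), with 10 of 276 at an unadjusted p under 0.05, a share below that threshold. Leaving out strain 2, 3, 13, 18, 20, 23, 24 or 28 alone also left 0, and without strain 22 only 1 fell. More were called without strain 7 (6 rising and 4 falling) or without strain 25 (7 rising and 3 falling). Where a pool other than strain 10 was left out and a call was lost, the adjusted p (limma) was 0.0505 to 0.115. Over all 15 such fits, strain 10 included, the slopes ran from 0.68 to 0.77 for miR-126-5p, 0.76 to 1.15 for miR-29c and 0.62 to 0.76 for miR-322. Those of miR-182 ran from -0.98 to -0.61 and those of miR-669c from -1.16 to -1.02. Without strains 10, 13 and 20, 0 passed among the remaining 12 pools (limma, smallest adjusted p = 0.985). There 12 of 276 had an unadjusted p under 0.05, again a share below that threshold. The slopes over these 12 pools were 0.60 for miR-126-5p, 0.61 for miR-322, 0.38 for miR-29c, -0.35 for miR-182 and -0.85 for miR-669c. The signs were those of the 15-pool fit, and the slopes of miR-29c and miR-182 shrank the most. These miRNAs were called in that fit and the 12 pools are part of it, so the shared signs are no independent check.

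**Figure D5:**
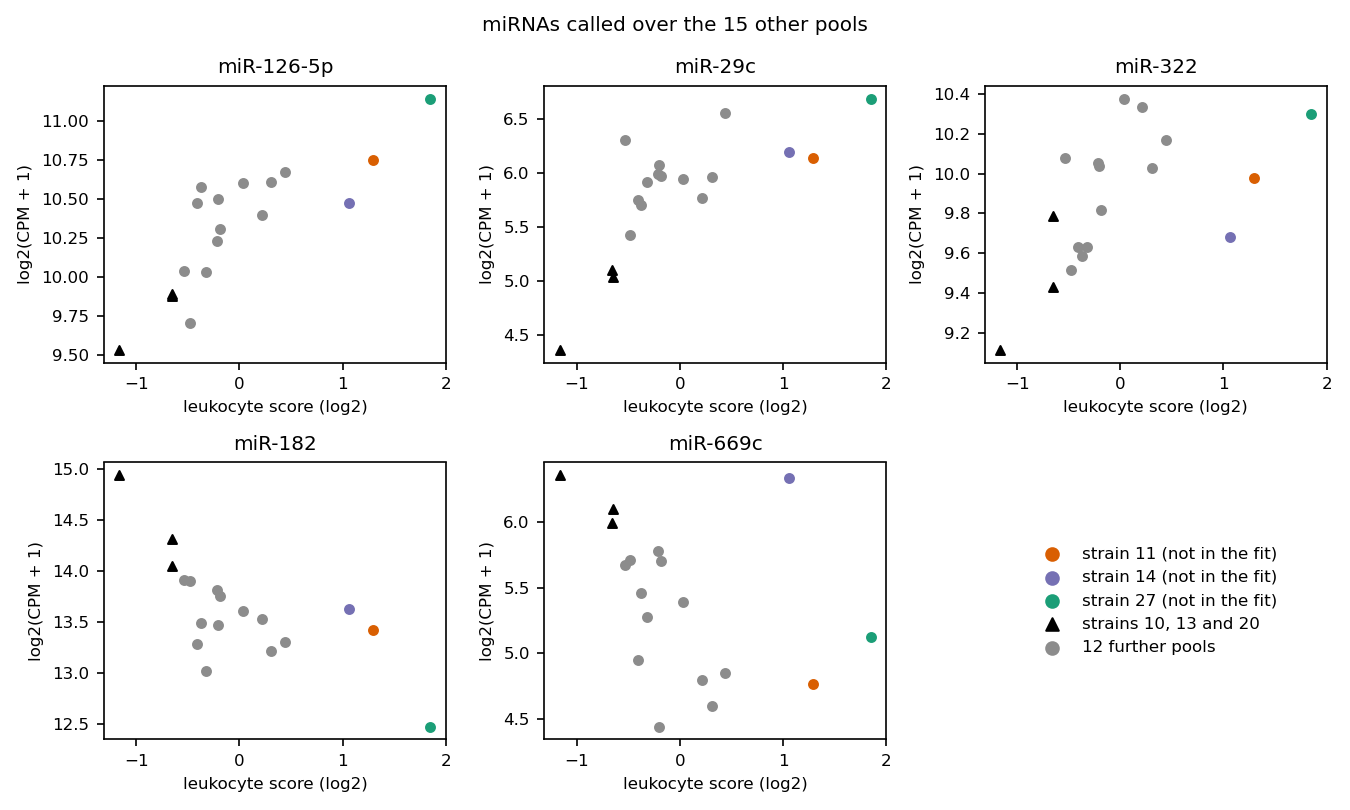
Level, log2(CPM + 1), against the leukocyte score (log2) for the 5 miRNAs with an adjusted p under 0.05 over the 15 pools, with 1 point per pool. Strains 10, 13 and 20 (triangles) lie at the low end of the score, and strains 11, 14 and 27 (coloured) were not in the fit. In strain 14, miR-322 (820.3 CPM) and miR-669c (79.9 CPM) lie inside the range of the 15 pools although its score of 1.06 is above all of theirs.

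In the list view of the same fit, where 1.09% of all 276 rose and 0.725% fell, 1 of 2 endothelial miRNAs rose and 1 of 13 luminal miRNAs fell, and 0 of 7 other lymphoid and myeloid, 0 of 3 erythroid, 0 of 5 skeletal muscle and 0 of 9 let-7 miRNAs passed. At those shares a list of this size would seldom hold a call, so the counts of 0 say nothing particular to a list. miR-146a had a slope of 0.68 ± 0.23 (SE), which did not pass (limma, adjusted p = 0.126). The median slope was 0.10 for skeletal muscle and -0.03 for erythroid miRNAs, against -0.06 over all 276. The let-7 median slope was -0.39. With scaling by the library total the median slope over all miRNAs became 0.35, so the sign of a small slope depends on the scaling.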

How the data were processed

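The labels map each of 18 libraries to 1 AKXD strain, and 0 sample columns of the table were left unused. The authors deposited 1 table of 583 miRNAs as log2 values. The submitters' processing notes list BWA and mm9 with no version or role. The sources used here do not give the read counter or the miRNA annotation.

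Raising 2 to the deposited log2 values (0 stayed 0) gave whole reads times 1 constant per library for 3713 of 3713 values of up to 50 reads, within 0.006 log2. A count model had been planned, but the unit is log2, so log2(CPM + 1) and limma 3.58.1 (R 4.3.3; trended, robust prior) were used. Rows with identical values (20 rows in 8 sets) were counted once, which left 571. TMM scaling trimmed 30% of log ratios and 5% of abundances. The minimum mean level was 10 CPM. Correlations used 100000 two-sided permutations. The slope fit was tested on simulated data. Python 3.11.15 was used otherwise.

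The pools, the lists and the tests were chosen with earlier results of these data known. The text names the 5 miRNAs of the choice and their passenger arms with reads, those not overlapping between groups, those called in the slope fit, the 2 to 4 most abundant members of each list, and per chosen pool the 3 farthest above and below the rest. miR-126-3p, miR-29a, miR-103, miR-127, miR-378*, miR-450b-5p, miR-542-3p, miR-709, miR-30a and miR-511 were named after their values were seen. Alternatives were other scalings, filters, pseudocounts and scores, and each pool left out.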

Additional observations from a re-analysis of the deposited data

How the results depend on the processing

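Each strain is 1 library, so every left-out library is a left-out strain. No paired analysis was possible because each strain is 1 library and replicate numbers pair nothing. The differences of miR-150, miR-142-3p, miR-142-5p, miR-155, miR-223, miR-215 and miR-144 kept their sign in all 28 alternatives run for each. The counts of miRNAs above or below all other pools, and of slopes called, were less stable, and the cause was not tested where none is named.

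With scaling by the library total, 0 miRNAs lay above and 2 below the 15 pools, 118 rose with the score, and list medians were -0.32 (other lymphoid and myeloid), 0.26 (endothelial), -0.47 (luminal), -0.059 (fibroblast and smooth muscle), -0.41 (Dlk1-Dio3) and -0.42 (miR-17-92). With the median of ratios, 1 lay above and 1 fell with the score. With all identical rows counted, 1 lay above and 1 fell. Without a filter, 4 lay above (miR-150* and miR-592 added) and 0 rose and 0 fell, among more miRNAs tested. With a mean of at least 100 CPM, 0 lay above, which leaves out miR-215 and miR-144 by construction, 1 fell, and the neural median was -0.78. The miR-17-92 median was 0.18 with strains 11 and 27 only.

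For the slopes, 0 rose and 0 fell with upper-quartile scaling, with a pseudocount of 5 CPM, without strains 10, 13 and 20, without strain 28, and with a score without miR-142. The same 0 and 0 were found under alternatives added after seeing the data, namely a score of miR-150 alone, a score without miR-223, and leaving out strains 10, 13, 20 and 28. A score of miR-142-3p alone gave 27 rising and 9 falling, and a score from summed CPM, which miR-142-3p dominates, gave 26 and 8. Limma without trend and robust prior called 1 falling. Spearman permutation tests called 1 rising (miR-126-5p) and 1 falling, which was neither miR-182 nor miR-669c. The slope of miR-215, not called in any of them, turned to -0.064 with miR-142-3p alone and to -0.049 with summed CPM.

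Leaving out each pool in turn gave 2 to 8 of 276 miRNAs above (0.725% to 2.90%, with 8 without strain 11). It gave 0 to 3 below (0% to 1.09%, with 3 without strain 11), 0 to 7 rising and 0 to 4 falling. The median of the other lymphoid and myeloid list ran from -0.10 to 0.15, that of miR-17-92 from -0.19 to 0.18, and the slope of miR-215 from -0.12 (without strain 2; -0.02 without strain 24) to 0.46. Depth limits low miRNAs such as miR-150*, whose values rest on 0 to 55 reads per library.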
